A study of Mus musculus with 6 samples.

Results

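Germ cells of the male mouse leave the stem cell pool when retinoic acid starts spermatogonial differentiation, and they leave mitosis for meiosis when a further retinoic acid signal acts. Genes of that transition, 8 in all, were followed in whole testes: *Stra8* and *Gm4969* (the gene of MEIOSIN), which start meiosis, *Sohlh1*, *Sohlh2* and *Dmrtb1*, transcription factors of differentiating spermatogonia, and *Tex101*, *Ly6k* and *Prss50*, which encode a pair of surface proteins and a testis protease made by germ cells around that stage. They were chosen by name, by matching the 8 symbols to gene identifiers, and are 8 of the 54232 genes in the count table. All 8 passed the filter on low counts.

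Bulk RNA-seq was done on testes of B6D2F1 mice at postnatal day 12 (P12), when the first wave of germ cells is entering meiotic prophase, with 3 libraries labelled *Dis3l2* WT (control) and 3 labelled *Dis3l2* KO. The KO group is described as *Stra8-Cre*; *Dis3l2* F/- mice, carrying 1 floxed and 1 null allele, and the controls as littermates whose own alleles are not given in the sources used here. CRE in this model is made under the promoter of *Stra8*, itself one of the 8 genes, from early postnatal spermatogonia to preleptotene spermatocytes, so somatic cells keep the floxed allele. *Dis3l2*, which encodes a cytoplasmic exoribonuclease, was not lower in the libraries labelled KO, at 31.6, 25.4 and 27.5 CPM (counts of a gene scaled to the size of its library) against 25.8, 23.5 and 23.0 in the control (log2 fold change 0.22, SE 0.11, edgeR adjusted p = 0.14), and its counts cover the whole gene, not the floxed part alone. *Dis3*, the gene of a related exosome ribonuclease that the design text of the series names in place of *Dis3l2*, stood at 59.1, 64.3 and 68.1 CPM against 133, 148 and 137 (-1.13, SE 0.08, edgeR adjusted p = 2.7e-07). The group is therefore called KO-labelled below, and no direction is tied to the loss of a named nuclease. The study also assayed *Dis3l2* RNA and protein in P12 testes by in situ hybridization, RT-PCR and immunoblot, data that were not analysed here.

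Libraries held 33325483 to 44956193 counts. Sertoli cell markers summed to 9624 to 10321 CPM in the control and 15574 to 16446 CPM in KO-labelled libraries, and 12 genes used throughout the germ line summed to 1769 to 2095 and 704 to 948 CPM, so both compartments of a testis were read and their balance differed between the groups. In RNA of a whole testis, fewer cells of a type and less RNA per cell cannot be told apart. The study calls the libraries of a group biological replicates, and the labels do not say whether each came from its own animal. P-values measure the spread between these libraries.

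STRA8 and MEIOSIN are DNA-binding partners that switch on the genes of meiotic prophase, and SOHLH1 and SOHLH2 are basic helix-loop-helix partners that bind E-boxes and are needed for spermatogonia to become KIT-positive. DMRTB1, also called DMRT6, helps to shut down the spermatogonial program at the switch to meiosis. TEX101 and LY6K are GPI-anchored proteins of the Ly6/uPAR family that bind each other on germ cells and matter later for sperm function. PRSS50 is a serine protease-like protein of the testis, known also as a cancer-testis antigen.

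Promoter sequences were taken from RefSeq (GRCm38.p6), from 250 bases before to 50 bases after each start site, and exist there for 7 of the 8 genes, with *Gm4969* under its synonym *Bhmg1*. *Ly6k* was without an entry. The 6 below are shown for the motif marked in each, which was picked gene by gene. Each motif was searched on both strands and matches could overlap another motif. Sequences are written 5′ to 3′ on the strand of the gene, and a match names letters only, not a bound site.

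Capitals mark the half-site of retinoic acid receptors (AGGTCA) in the promoter of the retinoic acid target *Stra8* (chr6:34920698-34920997, plus strand), where it occurs at -194 and -38 from the start site.
*Stra8* promoter: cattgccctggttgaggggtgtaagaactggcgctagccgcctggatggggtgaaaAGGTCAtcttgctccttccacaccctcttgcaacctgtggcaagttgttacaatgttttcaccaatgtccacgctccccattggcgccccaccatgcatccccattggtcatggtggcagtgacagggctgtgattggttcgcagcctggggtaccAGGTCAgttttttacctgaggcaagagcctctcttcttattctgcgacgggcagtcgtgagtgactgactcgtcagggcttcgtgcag
Capitals mark the motif described for STRA8 (CNCCTCAG) in the next 3, for *Gm4969* (chr7:19118295-19118594, minus strand, first base at -44), *Sohlh2* (chr3:55181794-55182093, plus strand, at -22) and *Prss50* (chr9:110857714-110858013, plus strand, at -164 and on the opposite strand).
*Gm4969* promoter: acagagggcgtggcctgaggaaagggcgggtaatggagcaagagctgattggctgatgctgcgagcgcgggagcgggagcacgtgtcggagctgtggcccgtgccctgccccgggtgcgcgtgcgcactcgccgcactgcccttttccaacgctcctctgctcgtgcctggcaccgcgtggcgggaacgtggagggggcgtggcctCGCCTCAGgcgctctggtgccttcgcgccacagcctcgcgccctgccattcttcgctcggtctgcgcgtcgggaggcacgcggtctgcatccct
*Sohlh2* promoter: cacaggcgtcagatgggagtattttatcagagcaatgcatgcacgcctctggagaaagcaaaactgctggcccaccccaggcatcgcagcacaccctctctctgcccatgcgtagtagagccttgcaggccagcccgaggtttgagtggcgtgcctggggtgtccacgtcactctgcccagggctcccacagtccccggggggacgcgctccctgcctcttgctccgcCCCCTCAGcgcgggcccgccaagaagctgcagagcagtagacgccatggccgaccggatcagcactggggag
*Prss50* promoter: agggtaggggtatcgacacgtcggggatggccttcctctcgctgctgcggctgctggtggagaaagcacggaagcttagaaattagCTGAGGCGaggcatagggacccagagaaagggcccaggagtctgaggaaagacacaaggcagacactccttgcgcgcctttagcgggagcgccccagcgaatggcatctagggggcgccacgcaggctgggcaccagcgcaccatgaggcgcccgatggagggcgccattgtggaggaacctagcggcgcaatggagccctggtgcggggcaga
Capitals mark the canonical E-box (CACGTG), the class of site that SOHLH proteins bind, in the promoter of *Sohlh1* (chr2:25847199-25847498, minus strand), at -231, -211 and -192.
*Sohlh1* promoter: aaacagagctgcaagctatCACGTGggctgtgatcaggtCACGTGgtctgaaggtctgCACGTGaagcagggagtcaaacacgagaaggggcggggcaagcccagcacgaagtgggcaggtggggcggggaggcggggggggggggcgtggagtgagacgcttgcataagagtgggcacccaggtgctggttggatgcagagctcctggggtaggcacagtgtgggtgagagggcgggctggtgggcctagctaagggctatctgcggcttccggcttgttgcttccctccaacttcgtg
Capitals mark the CCAAT box (CCAAT) in the promoter of *Tex101* (chr7:24672001-24672300, minus strand), at -144, -127, -96 and -65. That promoter held no AGGTCA, CNCCTCAG or CACGTG, and the CCAAT box is not a motif of the factors named above.
*Tex101* promoter: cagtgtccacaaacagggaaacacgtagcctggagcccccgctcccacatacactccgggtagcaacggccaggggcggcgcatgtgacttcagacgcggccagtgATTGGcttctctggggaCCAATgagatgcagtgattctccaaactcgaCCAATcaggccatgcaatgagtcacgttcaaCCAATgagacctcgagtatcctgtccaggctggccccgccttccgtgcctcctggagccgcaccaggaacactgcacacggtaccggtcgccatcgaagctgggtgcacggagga

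Of the 32851 mouse promoters of the same length, 7.94% held CNCCTCAG, 7.15% held CACGTG, 16.3% held AGGTCA and 37.4% held CCAAT. Repeats were rarer: 0.0883% held CACGTG at 3 or more places, 1.06% held CCAAT at 4 or more, and 1.81% held AGGTCA at 2 or more. These cutoffs equal the counts found in the promoters shown, so the shares describe those promoters and test nothing. *Sohlh1* was thus among few promoters with 3 canonical E-boxes, and *Stra8* held 4 CCAAT boxes besides its 2 half-sites. *Gm4969* also held 1 CACGTG, and neither of the 2 listed promoters of *Dmrtb1* held CNCCTCAG or CACGTG. The looser E-box CANNTG was in 72.3% of all promoters and says little about any of the 8. RefSeq starts need not be those of the counted gene models: they lie 4625 bases inside the span of *Tex101*, 785 bases inside that of *Stra8* and 641 bases inside that of *Dmrtb1* for its first promoter, and within 24 bases of the annotated start for the other promoters.

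Of the 8 genes, 7 were lower in KO-labelled libraries, and the remaining one, *Sohlh1*, was below the control in every library without passing the test. The deepest falls were those of *Gm4969* and *Prss50*, to 11.2% and 11.6% of the control, followed by *Tex101*, *Ly6k*, *Stra8* and *Dmrtb1*, at 19.1% to 25.8%. *Sohlh2* fell to 55.7%. Across all 20327 genes tested, 16.5% were called lower (Benjamini-Hochberg adjusted p below 0.05, edgeR quasi-likelihood test) and 16.2% higher, against 7 and 0 of the 8. A fall of 2-fold or more was called for 6 of the 8 and for 6.05% of all genes. All 3 KO-labelled libraries lay below all 3 controls for 8 of the 8 genes and for 23.8% of all genes. Their median log2 fold change was -2.25, and that of all genes tested was -0.02.

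**Figure D1:**
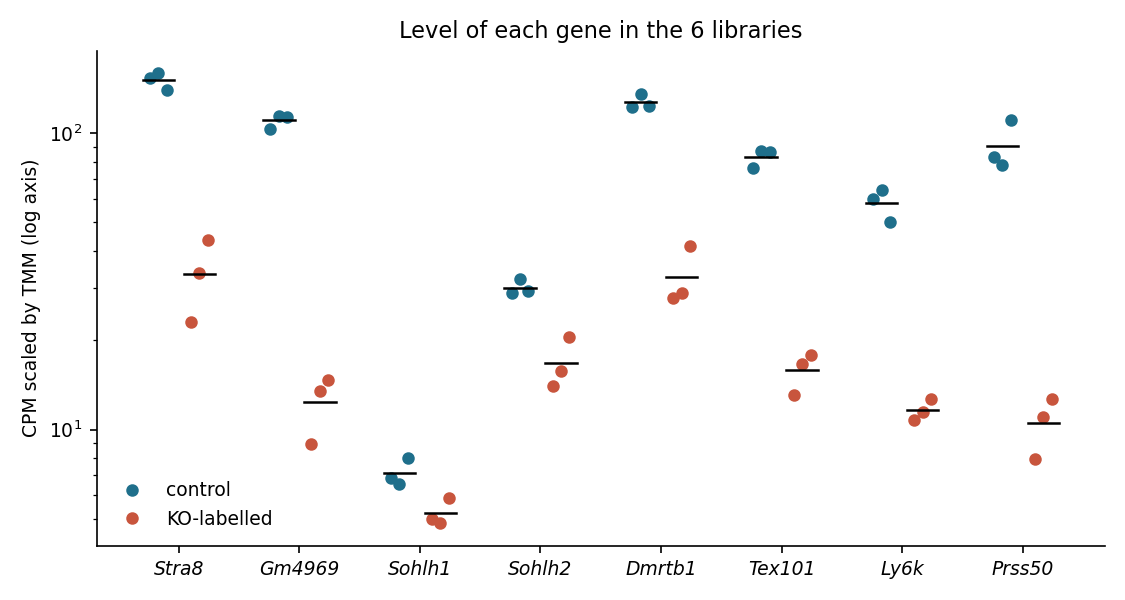
Level of each of the 8 genes in every library, in CPM scaled by TMM on a log axis; points are the 3 control and 3 KO-labelled libraries, and black lines are group means. No gene's groups overlap, with the widest gap for *Gm4969* (103 to 114 against 8.91 to 14.7 CPM) and the narrowest for *Sohlh1* (6.54 to 8.04 against 4.83 to 5.87 CPM).

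*Stra8* (ENSMUSG00000029848.11, GRCm38 chr6:34920163-34939344, plus strand), the retinoic acid target that commits germ cells to meiosis, stood at 153, 159 and 140 CPM in the control and 23.1, 33.6 and 43.4 CPM in KO-labelled libraries. The controls were close together and the KO-labelled libraries spread widely, with a coefficient of variation of 6.48% and 30.5%. Its level fell 4.51-fold (log2 fold change -2.17, SE 0.16, 95% interval -2.52 to -1.83, edgeR adjusted p = 2.7e-07).

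*Gm4969* (ENSMUSG00000085601.7, chr7:19099046-19118368, minus strand), whose protein works with STRA8, had 103, 114 and 113 CPM in the control against 8.91, 13.5 and 14.7 CPM. The lowest control was thus far above the highest KO-labelled library. Its fall of 8.90-fold (-3.15, SE 0.15, 95% interval -3.46 to -2.84, edgeR adjusted p = 4.9e-09) was the 49th deepest of the 20327 genes tested, and that of *Stra8* the 239th.

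*Sohlh1* (ENSMUSG00000059625.6, chr2:25842995-25847248, minus strand) was the least abundant of the 8, with 181 to 354 counts per library. It measured 6.85, 6.54 and 8.04 CPM in the control and 4.98, 4.83 and 5.87 CPM in KO-labelled libraries. The gap between the groups was small beside their spread, and the difference did not pass the test (-0.45, SE 0.17, 95% interval -0.82 to -0.09, edgeR adjusted p = 0.055). Leaving out KO-labelled replicate 3 brought it past the threshold (-0.53, edgeR adjusted p = 0.04), as did a stricter filter on counts (-0.47, edgeR adjusted p = 0.046).

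*Sohlh2* (ENSMUSG00000027794.4, chr3:55182028-55209957, plus strand), the partner of *Sohlh1*, measured 28.8, 32.2 and 29.3 CPM in the control and 14.0, 15.7 and 20.6 CPM in KO-labelled libraries. The groups were apart, and KO-labelled replicate 3 was nearest to the control. It fell 1.80-fold (-0.84, SE 0.13, 95% interval -1.13 to -0.56, edgeR adjusted p = 0.00024). Tested against a change of 1.5-fold, the fall did not pass (edgeR adjusted p = 0.13).

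*Dmrtb1* (ENSMUSG00000028610.16, chr4:107676290-107684230, minus strand) had 122, 135 and 124 CPM in the control and 27.8, 28.8 and 41.6 CPM in KO-labelled libraries. KO-labelled replicate 3 again stood above the other two, still far below any control. It fell 3.88-fold (-1.96, SE 0.13, 95% interval -2.23 to -1.68, edgeR adjusted p = 9.8e-08).

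Among the genes of surface proteins, *Tex101* (ENSMUSG00000062773.6, chr7:24668007-24676675, minus strand) measured 76.2, 86.8 and 86.5 CPM against 13.1, 16.6 and 17.9 CPM, a fall of 5.25-fold (-2.39, SE 0.12, edgeR adjusted p = 7.2e-09). Its binding partner *Ly6k* (ENSMUSG00000044678.11, chr15:74796874-74799986, minus strand) measured 59.9, 64.3 and 50.2 CPM against 10.8, 11.4 and 12.7 CPM, a fall of 4.99-fold (-2.32, SE 0.12, edgeR adjusted p = 8.1e-09). Both were low in all 3 KO-labelled libraries, and *Ly6k* varied least there, with a coefficient of variation of 8.29%. *Gm17189*, annotated on the opposite strand, shares 395 exonic bases with *Ly6k* and held 0 to 7 counts per library in this stranded count.

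*Prss50* (ENSMUSG00000048752.7, chr9:110857967-110864629, plus strand) had 83.1, 78.0 and 111 CPM in the control and 7.95, 11.02 and 12.7 CPM in KO-labelled libraries. Control replicate 3 stood above the other controls, and the coefficient of variation of the control, 19.5%, was the highest of the 8. It fell 8.59-fold (-3.10, SE 0.16, 95% interval -3.45 to -2.75, edgeR adjusted p = 1.1e-08).

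Per kilobase of exon, the order of the control levels was *Stra8* (83.5 ± 5.41 CPM per kb, SD, n = 3), *Ly6k* (70.1 ± 8.71), *Prss50* (62.3 ± 12.2), *Dmrtb1* (61.0 ± 3.33), *Tex101* (50.2 ± 3.63), *Gm4969* (23.5 ± 1.34), *Sohlh2* (12.7 ± 0.779) and *Sohlh1* (5.54 ± 0.614). *Ly6k*, *Prss50* and *Dmrtb1* did not differ from each other beyond their spread. In the KO-labelled libraries the order was *Stra8* (18.5 ± 5.65 CPM per kb, SD, n = 3), *Dmrtb1* (15.7 ± 3.68), *Ly6k* (14.1 ± 1.16), *Tex101* (9.56 ± 1.51), *Prss50* (7.24 ± 1.64), *Sohlh2* (7.09 ± 1.45), *Sohlh1* (4.05 ± 0.435) and *Gm4969* (2.64 ± 0.651). *Gm4969* moved from the sixth place to the last, below both *Sohlh* genes, while *Stra8*, *Dmrtb1* and *Ly6k* lay within 1 SD of a neighbour there, as did *Prss50* and *Sohlh2*.

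The 3 KO-labelled libraries kept nearly the same order from gene to gene: replicate 3 was the highest for 8 of the 8 genes and replicate 1 the lowest for 7, the exception being *Sohlh1*, lowest in replicate 2. Germ cell genes as a whole followed that order, with sums of 704, 827 and 948 CPM in KO-labelled replicates 1, 2 and 3. Their part in the members' order was not tested.

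Partner genes did not all move by the same amount. The ratio of *Gm4969* to *Stra8* counts, which does not depend on how a library is scaled, was 0.674, 0.719 and 0.810 in the control and 0.386, 0.402 and 0.338 in KO-labelled libraries. On the log2 scale it was -0.45 ± 0.14 (SD, n = 3) and -1.42 ± 0.13 with no overlap, a difference of -0.97 (exact two-sided permutation test, p = 0.1, the smallest that 3 against 3 allows). *Gm4969* thus lost more of its counts than *Stra8* in each KO-labelled library.

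For *Sohlh1* to *Sohlh2* the ratio was 0.238, 0.203 and 0.274 in the control and 0.356, 0.307 and 0.285 in KO-labelled libraries, a log2 difference of 0.41 (exact permutation p = 0.1). *Sohlh2* therefore fell further than its partner, with the groups close but apart. *Tex101* to *Ly6k* gave 1.27, 1.35 and 1.72 against 1.21, 1.45 and 1.41, and the groups overlapped (log2 difference -0.09, exact permutation p = 0.7). Adjusted over the 3 pairs, the exact permutation p were 0.15, 0.15 and 0.7, so none passed a threshold of 0.05, which the design cannot reach.

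**Figure D2:**
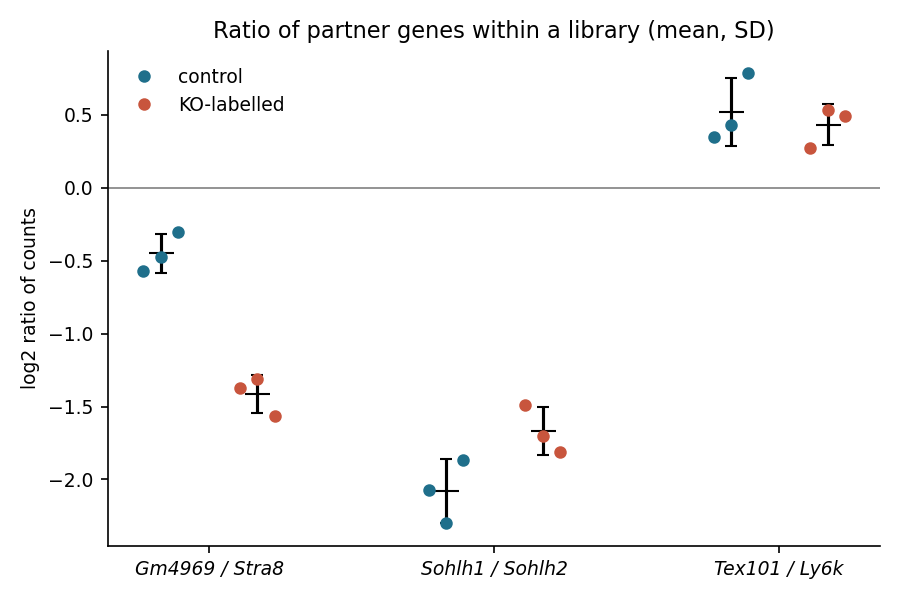
Log2 ratio of the counts of partner genes in every library; points are libraries, and bars are the mean and SD of 3 control or 3 KO-labelled libraries. *Gm4969* to *Stra8* is lower in every KO-labelled library (mean -1.42 against -0.45), *Sohlh1* to *Sohlh2* is higher, and *Tex101* to *Ly6k* overlaps.

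The reference that the libraries are scaled by changed the sizes of the falls and, for the *Sohlh* genes, their direction. Markers of 6 somatic cell types took more of the counts in KO-labelled libraries (22835 to 26066 CPM against 15987 to 17604), with 32 of 52 called higher and 3 lower. Scaled to those markers, which moved the median of all genes by -0.53, all 8 regulators were called lower, as were 51.9% of all genes (1.16% were higher), and *Sohlh1* was at -0.99 (edgeR adjusted p = 0.00073).

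Scaled instead to the 12 germ cell genes, which moved the median of all genes by 1.22, 6 of the 8 were still called lower where 1.25% of all genes were. *Gm4969* was at -1.97 and *Prss50* at -1.93, *Tex101* at -1.19, *Ly6k* at -1.10, *Stra8* at -0.99 and *Dmrtb1* at -0.76. *Sohlh1* was called higher (0.75, edgeR adjusted p = 0.0048), as were 75.2% of all genes, and *Sohlh2* was not called (0.35, edgeR adjusted p = 0.093). Per 100 counts of these germ cell genes, *Stra8* had 7.90 ± 0.31 in the control and 3.97 ± 0.66 in KO-labelled libraries (SD, n = 3), *Gm4969* 5.80 ± 0.53 and 1.48 ± 0.19, *Sohlh1* 0.378 ± 0.072 and 0.637 ± 0.063, and *Sohlh2* 1.58 ± 0.067 and 2.02 ± 0.14. Groups did not overlap for any of the 8 on that scale.

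*Dazl* and *Taf7l*, both called lower, made up 39.3% to 57.5% of the germ cell sum. In a scaling added after the values had been seen, with those genes left out of it, the same 6 were called lower (against 2.88% of all genes called lower and 61.5% higher), and neither *Sohlh1* (0.31, edgeR adjusted p = 0.23) nor *Sohlh2* (-0.08, edgeR adjusted p = 0.69) was called. Scaled to 19 genes of undifferentiated spermatogonia, a second added reference, all 8 were called lower, against 26.1% of all genes called lower and 4.66% higher, with *Sohlh1* at -0.69 (edgeR adjusted p = 0.0098) and *Sohlh2* at -1.09. One gene, *Foxo1*, gave much of that reference, a mean of 182 of 522 CPM in the control and 186 of 616 CPM in KO-labelled libraries.

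**Figure D3:**
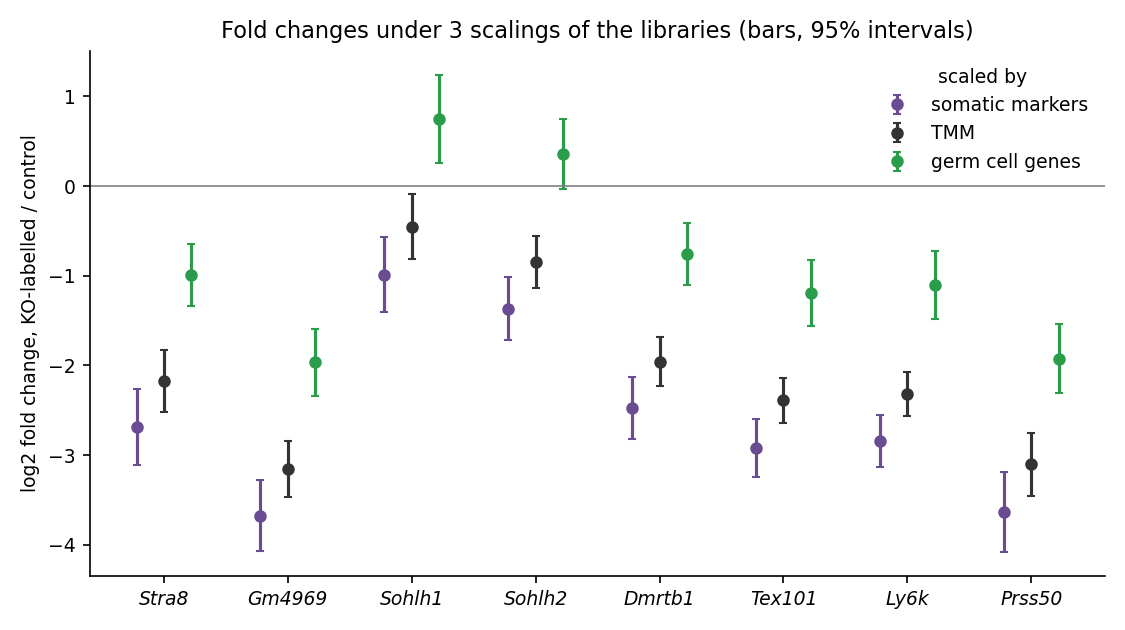
Log2 fold change (KO-labelled over control) of the 8 genes when libraries are scaled to somatic markers, by TMM or to 12 germ cell genes; points are edgeR estimates and bars their 95% intervals, n = 3 libraries a group. All but the *Sohlh* genes lie below 0 under all 3 scalings, while *Sohlh1* runs from -0.99 to 0.75 and *Sohlh2* from -1.37 to 0.35.

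Other genes listed for differentiating spermatogonia moved in both directions. Whether each of them is confined to that stage was not tested. Of 14, 9 were called lower and 2 higher (16.5% and 16.2% of all genes tested), with a median log2 fold change of -0.49. The X-linked homeobox genes *Esx1* (-3.01, edgeR adjusted p = 1.2e-08) and *Rhox13* (-2.18, edgeR adjusted p = 9.4e-09) had the smallest p, and *Dmrt1*, which holds back meiosis in spermatogonia, fell from 358 ± 18.2 to 278 ± 32.7 CPM (-0.37, edgeR adjusted p = 0.0062). Scaled to germ cell genes, *Dmrt1* was called higher instead (0.84, edgeR adjusted p = 5.1e-07), and its somatic share was not tested. *Kit*, the receptor that marks differentiating spermatogonia and needs the SOHLH factors, measured 119, 123 and 123 CPM against 109, 113 and 108 CPM and was not called (-0.14, SE 0.07, edgeR adjusted p = 0.15). Its call turned with the scaling, to lower when scaled to somatic markers (-0.68, edgeR adjusted p = 4.8e-05) and to higher when scaled to germ cell genes (1.08, edgeR adjusted p = 4.6e-09). *Kit* is also made by Leydig cells, and its somatic share was not tested. *Ccnd2*, a D-type cyclin, was higher (0.72, edgeR adjusted p = 1.1e-05), as was *Nanos3*, an RNA-binding germ cell gene (0.81, edgeR adjusted p = 0.024). The call of *Nanos3* was lost without control replicate 1, control replicate 2 or KO-labelled replicate 3, which left 1 of 14 higher. No gene of the list was called higher when scaled to somatic markers, where 1.16% of all genes were.

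Genes of undifferentiated spermatogonia, the stage before the transition, were 8 higher, 1 lower and 10 not called of 19, with a median of 0.49 (16.2% of all genes were higher and 16.5% lower). *Cdh1*, an adhesion gene, stood at 9.99, 8.56 and 11.02 CPM in the control and 26.2, 23.8 and 27.1 CPM in KO-labelled libraries (1.38, edgeR adjusted p = 2.4e-06), and *Etv5*, a target of GDNF signalling, rose as well (0.72, edgeR adjusted p = 5.8e-05), a call that was lost when scaled to somatic markers (0.19, edgeR adjusted p = 0.2). *Sox3* was the gene that fell (-0.59, edgeR adjusted p = 0.024), and omitting control replicate 3 or either of KO-labelled replicates 1 and 2 ended its call. Scaled to somatic markers, 2 of the 19 were called higher and 4 lower, where 1.16% and 51.9% of all genes were.

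Of genes of early meiotic prophase, 28 of 28 were called lower, with a median of -1.86 (16.5% of all genes were lower). They were listed by stage, and their dependence on STRA8 or MEIOSIN was not tested. *Sycp2*, of the chromosome axis, fell from 263 ± 15.3 to 54.2 ± 8.02 CPM (SD, n = 3, edgeR adjusted p = 4.9e-09), and *Tex15*, a gene of meiotic DNA repair and transposon silencing, from 660 ± 82.0 to 152 ± 13.5 CPM (edgeR adjusted p = 6.7e-09). *Gm4969* and *Prss50* fell further than any of the 28, whose log2 fold changes ran from -2.60 to -0.60. The difference between the lists was not tested.

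RNA-binding regulators of the switch to meiosis were lower in 6 of 6 cases, with a median of -1.55 (16.5% of all genes were lower). *Meioc* went from 315 ± 31.0 to 72.7 ± 10.9 CPM (-2.12, edgeR adjusted p = 9.5e-09), and its partner *Ythdc2*, a helicase that recognises methylated RNA, from 60.3 ± 3.20 to 26.2 ± 4.42 CPM (-1.20, edgeR adjusted p = 3e-06). *Rbm46*, which acts in the same complex, was at -1.44 (edgeR adjusted p = 6.7e-07), *Cpeb1*, a polyadenylation factor, at -2.37 (edgeR adjusted p = 4.9e-09) and *Dazl*, a translation regulator, at -1.66 (edgeR adjusted p = 1.8e-07). The sixth, *Ythdf2*, was at -0.25 (edgeR adjusted p = 0.028), a call that was lost under each omission of a library except that of control replicate 3.

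**Figure D4:**
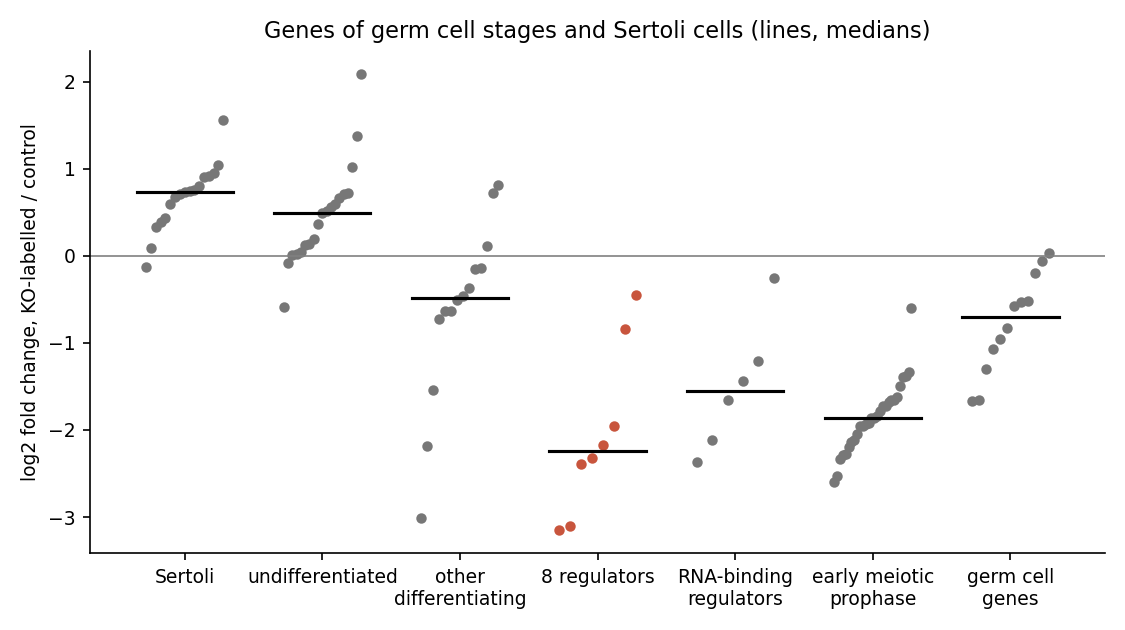
Log2 fold change (KO-labelled over control) of the tested genes of each list, 1 point a gene, with the median as a black line; the 8 regulators are in red. Medians run from 0.73 for Sertoli markers and 0.49 for undifferentiated spermatogonia through -0.49 for other genes of differentiating spermatogonia to -2.25 for the 8 regulators, -1.55 for RNA-binding regulators, -1.86 for early meiotic prophase and -0.71 for germ cell genes. *Dazl* is a point in both the RNA-binding and the germ cell list.

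Retinoic acid genes, which make, break down, carry or sense the signal that switches on *Stra8*, moved in both directions. Of 18 tested, 6 were lower and 5 higher (16.5% and 16.2% of all genes) and 7 were not called, with a median of -0.14. *Rbp4*, a retinol carrier (-1.89, edgeR adjusted p = 2.6e-06), and *Crabp1*, a retinoic acid binding protein of spermatogonia (-1.55, edgeR adjusted p = 2.2e-05), fell. This list shares genes, *Crabp1* among them, with that of differentiating spermatogonia, so the counts of the lists are not independent. *Aldh1a1*, the retinoic acid synthesis enzyme of Sertoli cells, rose from 332 ± 22.5 to 492 ± 55.5 CPM (edgeR adjusted p = 0.00028), and so did the receptor gene *Rara* (0.73, edgeR adjusted p = 0.00036). Sertoli cell markers were higher too, 15 of 17 of them with a median of 0.73, and the part of Sertoli cells in these rises was not tested. Scaled to somatic markers, none of the 18 was called higher and 10 were lower, where 1.16% and 51.9% of all genes were.

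Among relatives of the 8, oocyte genes listed for a link to SOHLH1 and SOHLH2 in the ovary were lower in 3 of 4 cases (16.5% of all genes were lower). Their dependence on the SOHLH factors was not tested. *Lhx8* measured 2.45, 3.08 and 2.36 CPM against 0.523, 0.537 and 0.498 CPM (-2.33, edgeR adjusted p = 5.2e-05). *Taf4b* fell by 0.67 on the log2 scale (edgeR adjusted p = 7.1e-05) and *Figla* by 1.23 (edgeR adjusted p = 0.00018). *Nobox* was not called (-0.72, edgeR adjusted p = 0.14). Of 7 other DMRT genes, *Dmrtc2* (-2.00, edgeR adjusted p = 2.5e-06), a factor of meiotic sex chromosomes, and *Dmrt1* were lower, and 5 were not called (16.5% of all genes were lower).

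Other genes of the Ly6/uPAR family mostly did not follow *Tex101* and *Ly6k*, and their counts do not set the family apart from all genes (16.5% lower, 16.2% higher). Of 22 tested, 3 were lower, 2 higher and 17 not called, with a median of 0.08. Those that fell included *Gml2* (-1.93, edgeR adjusted p = 4e-05) and *Gml* (-1.48, edgeR adjusted p = 0.00039), which lie on chromosome 15 as *Ly6k* does, and those that rose were *Ly6e* (0.43, edgeR adjusted p = 0.0051) and *Cd59a* (0.49, edgeR adjusted p = 0.0055), neither of them when scaled to somatic markers. Of the 15 family genes on chromosome 15, 11 were tested, with 2 lower and 1 higher. Of 13 other testis protease genes, 4 were abundant enough to test and 4 were lower, where 16.5% of all genes were. *Prss41* went from 4.25 ± 0.658 to 0.980 ± 0.308 CPM (edgeR adjusted p = 5.1e-05). *Prss45*, a neighbour of *Prss50* on chromosome 9, had 0.893, 1.08 and 1.32 CPM against 0.0825, 0.420 and 0.131 CPM (-2.33, edgeR adjusted p = 0.0059). A gene this near the floor can pass the filter through its control libraries alone, which favours a call of lower. The count is therefore no support for a fall of the family. Without control replicate 3, 2 of the 4 tested proteases were called.

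Scaled to the 12 germ cell genes, the lists turned in part. Of the genes of early meiotic prophase 19 of 28 were still called lower and 1 higher, of the RNA-binding regulators 3 of 6 lower and 1 higher, and of the testis proteases 1 of 4 lower. *Dazl*, one of the 6 RNA-binding regulators, is also among the 12 germ cell genes, so it was scaled in part to itself. Other genes of differentiating spermatogonia turned to 2 lower and 11 higher of 14, *Esx1* and *Rhox13* being the 2, those of undifferentiated spermatogonia to 18 higher of 19, and retinoic acid genes to 1 lower and 13 higher of 18. Ly6/uPAR genes gave 1 lower and 13 higher of 22, DMRT genes 1 lower and 5 higher of 7, and oocyte genes 1 lower and 1 higher of 4, where 75.2% of all genes were called higher.

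The genes whose profile over the 6 libraries was most like that of *Stra8*, by the root mean square distance of centred log2 CPM among 11365 protein-coding genes with a mean of at least 5 CPM, were *Dmc1* (0.0600), *Pou4f1* (0.0793) and *Ccdc36* (0.0906). *Dmc1*, a meiotic recombinase, stood at 55.2, 61.3 and 49.5 CPM against 8.91, 11.6 and 15.6 CPM. Of the other members, *Tex101* came 20th, *Dmrtb1* 22nd and *Ly6k* 28th, while *Gm4969* came 180th, *Prss50* 183rd, *Sohlh2* 483rd and *Sohlh1* 1420th. *Gm4969* was most like *Esx1* (0.122), *Prss50* (0.159) and *Tc2n* (0.301), with *Stra8* at the 28th place. These distances describe 6 libraries in 2 groups, so most of each is the difference between the groups.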

How the data were processed

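Testes were read as 3 control and 3 KO-labelled libraries with a strand-selecting kit and 50-base single-end reads. Read trimming by the authors used cutadapt, and alignment used HISAT2 with GRCm38.p5 (builds and tools per the labels' processing notes). Reads were counted with featureCounts 1.6.4 on 1 strand over GENCODE M18, and a read matching more than 1 place or gene was dropped. The values deposited are raw counts for 54232 genes; library columns without a use here numbered 0. GENCODE M21 named 54165 of its identifiers. Coordinates are GRCm38.

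Counts were tested with edgeR 4.0.16 in R 4.3.3 (filterByExpr, TMM, glmQLFit, glmQLFTest, no covariates), with Benjamini-Hochberg adjustment over the 20327 genes tested. SE was taken as the absolute log2 fold change over the root of the F statistic. CPM are scaled by TMM. Log2 CPM of profiles carry a prior count of 1. Ratios were tested by exact permutation (scipy 1.17.1). Python 3.11.15, pandas 2.3.3 and matplotlib 3.10.9 handled tables and plots. The tests were run on simulated counts in which few genes changed, as many up as down. That check does not cover the shifted cell balance of these libraries or the choice of scaling.

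The 8 genes and all lists were chosen with earlier results of these data known. Named genes were the 8, *Dis3l2* and its homologs, *Kit*, *Dmrt1*, *Ythdc2*, *Meioc*, *Rbm46*, for every list the 2 rises and 2 falls with the lowest adjusted p among those called, and the 3 closest profiles to *Stra8* and *Gm4969*. *Nobox*, *Figla*, *Ythdf2*, *Taf7l*, *Foxo1* and *Gm17189* were named after their values were seen. Alternatives were DESeq2 1.42.0, other filters, 2 reference gene sets, a test against 1.5-fold, a replicate block and each library left out; 2 reference sets were added after the values had been seen.

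Same-numbered libraries did not deviate together, and no library was a copy of another.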

Additional observations from a re-analysis of the deposited data

How the results depend on the processing

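Directions of the 8 genes and the calls of 6 of them held under DESeq2, both filters, the block, every omitted library and all 4 reference gene sets; *Sohlh1* and *Sohlh2* were the exceptions. *Sohlh1* passed the test at -0.47 with at least 10 counts in every library, at -0.99 scaled to somatic markers and at -0.69 scaled to undifferentiated spermatogonia genes, and turned to 0.75 and 0.31 when scaled to germ cell genes with and without *Dazl* and *Taf7l*. *Sohlh2* turned to 0.35 when scaled to germ cell genes, missed the call at -0.082 without *Dazl* and *Taf7l*, and missed it at -0.84 when tested against 1.5-fold. Over all genes, scaling to somatic markers gave 235 higher and 10558 lower, scaling to germ cell genes 15294 and 254 (with 1 of the 8 called higher), and the test against 1.5-fold 206 and 835, against 3294 and 3347 as reported. Scaling moved the reference itself, and the 1.5-fold test asks for a larger change by its construction. With libraries left out in turn, 2385 to 3331 genes were called higher and 2563 to 3338 lower, 7 to 8 of the 8 were lower, and the log2 fold change ran from -0.53 to -0.36 for *Sohlh1*, with the call gained only without KO replicate 3. Of the counts of called list genes, 186 stayed within 1.5 times and 34 did not, most of those under the somatic or germ cell scaling. Of list calls at a margin, *Mnd1* was lost without control replicate 1, control replicate 2 or KO replicate 3.

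Replicate numbers do not pair the libraries: the correlations of deviations between same-numbered libraries were -0.0014, -0.0126 and 0.0139. With the replicate number as a block, 3271 genes were called higher and 3290 lower, 7 of the 8 were lower, and *Sohlh1* stayed at -0.45 (edgeR adjusted p = 0.056).

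*Sohlh1* had the fewest counts of the 8, 181 to 354 per library, and its SE of 0.17 was close to that of *Stra8* and *Prss50* (both 0.16). Group sizes of 3 limit every ratio test to p = 0.1 (exact permutation test).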
